A study of Mus musculus with 23 samples.

Results

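Fatty acid synthesis was followed through 10 genes in the lung of BALB/c mouse offspring: Scd1, Scd2, Fasn, Acaca, Acly, Elovl6, Srebf1, Me1, Thrsp and Insig1. They were picked from the expression table by symbol, all 10 were found among its 35322 genes, and all 10 were among the 16795 genes that passed the filter on low values. Scd1 was picked because it had leaned higher in PM than in Sham and had a trend for an interaction of maternal exposure and challenge in these libraries, so those contrasts are given below as descriptions, with no test for any of the 10 genes, and Scd1 was tested only for the response to challenge averaged over both maternal groups.

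RNA-Seq was performed on lung (right lower lobe by the methods of the study) from offspring aged 13 weeks and labelled female, of dams given either PM2.5, fine airborne particles, in saline or saline alone by the nose before mating, through gestation and until weaning. Sham were offspring of saline dams and PM were offspring of PM2.5 dams, both given nebulised saline (PBS in the labels), with 7 libraries each. Sham-OVA (5 libraries) and PM-OVA (4 libraries) were their counterparts sensitised with ovalbumin (OVA) in alum and challenged with OVA aerosol, a model of allergic airway disease (AAD). No offspring were themselves dosed with PM2.5, every group had been through lung function testing with methacholine, and the dam of each library was not given, so libraries of 1 group may share a litter.

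De novo lipogenesis turns cytosolic citrate into fat. ATP citrate lyase (Acly) cuts citrate to acetyl-CoA, acetyl-CoA carboxylase 1 (Acaca) makes malonyl-CoA, fatty acid synthase (Fasn) builds palmitate with NADPH that malic enzyme (Me1) helps to supply, Elovl6 lengthens palmitate to stearate, and the stearoyl-CoA desaturases Scd1 and Scd2 place a double bond that makes oleate. Srebf1 encodes SREBP-1, the transcription factor that drives the pathway, Insig1 holds the SREBP precursors in the endoplasmic reticulum when sterols are plentiful and is itself a classical SREBP target, and Thrsp (Spot 14) is a nuclear protein tied to lipogenic tissues. In the lung the pathway is best known in alveolar type 2 cells, which make the phospholipids of surfactant, and adipocytes around the large airways also use it.

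The promoters of the gene that fell furthest with challenge (Insig1), the gene that rose furthest (Me1) and fatty acid synthase itself (Fasn) are shown to place them beside the SREBP pathway. RefSeq promoters (GRCm38.p6) were at hand for 8 of the 10 genes, not for Scd1 and Scd2. Each line holds the 250 bases before the start, 5′ to 3′ on the gene's own strand, with capitals marking matches on either strand to the motifs searched: the E-box CACGTG, the sterol response element core TCACNCCAC, the antioxidant response element core TGACNNNGC and the CCAAT box.
Insig1, chr5:28071162-28071411, plus strand: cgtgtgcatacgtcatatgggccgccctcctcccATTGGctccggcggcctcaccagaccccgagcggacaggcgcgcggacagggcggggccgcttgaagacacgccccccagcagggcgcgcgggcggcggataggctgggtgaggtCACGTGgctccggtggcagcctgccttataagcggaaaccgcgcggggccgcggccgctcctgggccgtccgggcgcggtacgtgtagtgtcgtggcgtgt
Me1, chr9:86695915-86696164, minus strand: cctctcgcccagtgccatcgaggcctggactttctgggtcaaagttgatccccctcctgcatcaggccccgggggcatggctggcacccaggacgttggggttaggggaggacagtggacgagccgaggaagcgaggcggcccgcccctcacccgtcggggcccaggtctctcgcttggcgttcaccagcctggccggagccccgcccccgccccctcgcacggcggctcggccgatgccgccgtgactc
Fasn, chr11:120824548-120824797, minus strand: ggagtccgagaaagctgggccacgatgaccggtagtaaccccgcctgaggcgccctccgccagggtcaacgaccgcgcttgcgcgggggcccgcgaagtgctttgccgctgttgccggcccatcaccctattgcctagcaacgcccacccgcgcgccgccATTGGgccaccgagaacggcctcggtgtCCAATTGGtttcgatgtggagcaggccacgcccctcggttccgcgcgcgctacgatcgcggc
Insig1 held 1 E-box and 1 CCAAT box, Fasn held 3 CCAAT boxes, of which 2 overlap on opposite strands, and the first of the 2 Me1 starts held no match. Thrsp, not printed, held 2 CCAAT boxes. The letters of the E-box stood in 6.02% of the 32851 promoters of the same length, those of the sterol response element core in 1.05%, those of the antioxidant response element core in 10.2% and those of the CCAAT box in 33.8%. None of the 11 starts of the 8 genes held the sterol or the antioxidant core in this window, and such letters are a description of the sequence, not of binding.

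The values are RPM, the reads of a gene scaled to the size of its library. Reads on genes ranged from 13089691 to 17393579 in the saline libraries, from 2298645 to 12185451 in Sham-OVA and from 4324326 to 12355561 in PM-OVA, so that 1 read was worth 0.311 RPM in the shallowest library (Sham-OVA replicate 3) and 0.133 and 0.182 RPM in PM-OVA replicates 3 and 4. Sham replicate 1 went against its labelled sex, with 0.289 RPM of Xist and 54.04 RPM of the Y-linked Eif2s3y. Without that library the number of genes past the threshold stayed at 4 of 9 in Sham-OVA against Sham and at 6 of 10 averaged over both maternal groups. Of all 16795 genes 11039 and 12878 passed there. Lung markers were present throughout (of 6 tested, 3 rose and 1 fell with challenge on average, and the club cell gene Scgb1a1 was at −0.49 with an adjusted p of 0.155), with the type 2 cell surfactant gene Sftpc between 6490 and 31953 RPM. The median of all genes tested was lower by 0.48 on the log2 scale in Sham-OVA than in Sham, and by 0.43 in PM-OVA than in PM. Changes below are best read against those medians. Without the 3 shallowest libraries the medians were −0.33 and −0.14, so they depend on those libraries.

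The 10 genes differed widely in level. Per kilobase of transcript, Scd2 (178 RPM per kb) and Scd1 (125 RPM per kb) were the most abundant in Sham, Acly, Srebf1 and Fasn stood between 25.0 and 35.9 RPM per kb, Me1 at 14.3, Thrsp at 7.60, Insig1 at 4.78, Elovl6 at 1.17 and Acaca at 0.106 RPM per kb. In Sham-OVA the order of the leading genes was different, with Scd1 at 221, Scd2 at 105 and Me1 at 56.0 RPM per kb. These levels divide by the longest annotated transcript, and Acaca, whose coverage was 7 to 31 reads in a saline library, is known least precisely.

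**Figure D1:**
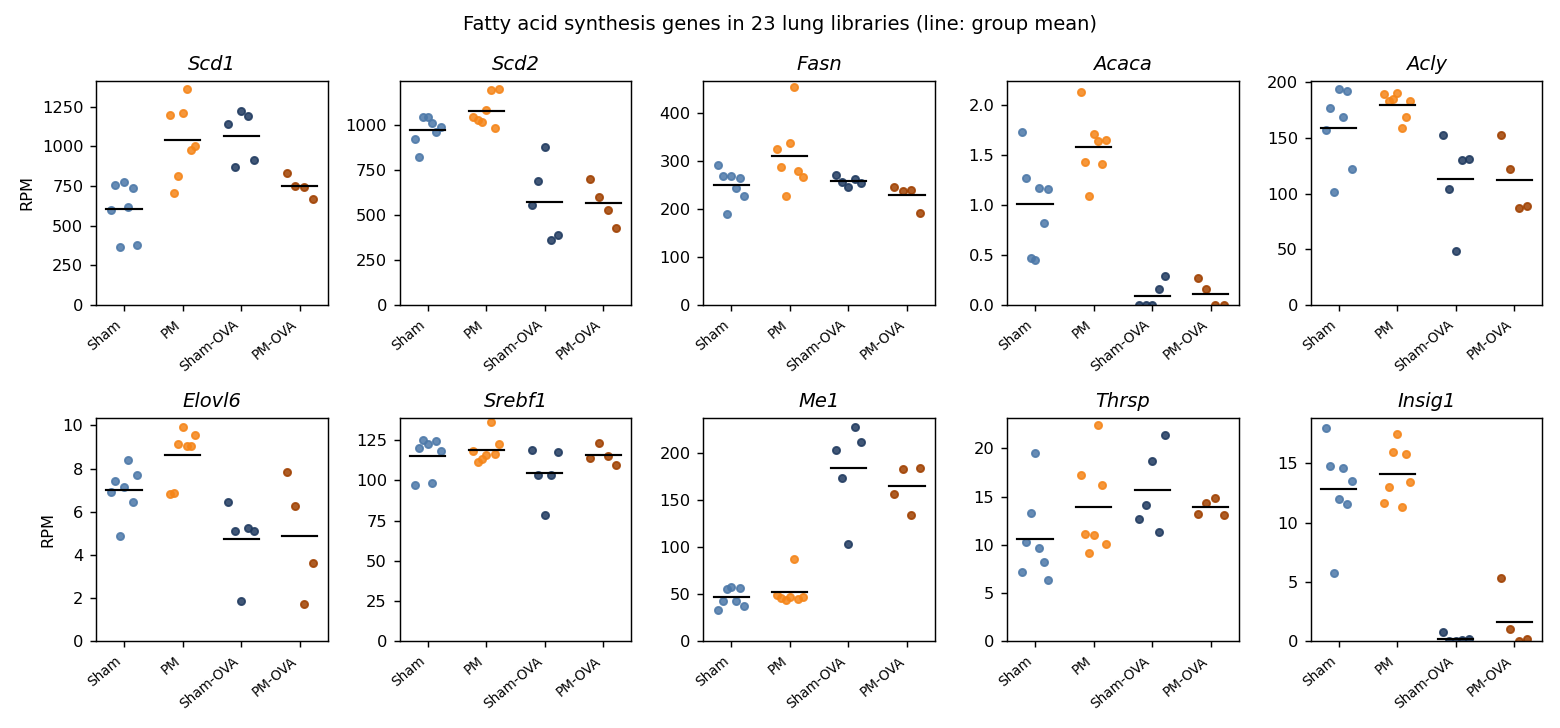
Level (RPM, linear axis from 0) of the 10 genes in each of the 23 libraries, grouped as Sham (n = 7), PM (n = 7), Sham-OVA (n = 5) and PM-OVA (n = 4). Points are libraries and lines are group means: Insig1 stood at or below 5.38 RPM in every OVA library, Me1 stood at or above 103 RPM in every OVA library, and Scd1 was higher in Sham-OVA than in every Sham library.

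Scd1, the main stearoyl-CoA desaturase of liver and fat, had a mean 1.72 times that of Sham in PM among saline offspring, 1.77 times that of Sham after OVA challenge in offspring of Sham dams, and 0.720 times that of PM after challenge in offspring of PM2.5 dams. In Sham its level ran from 366 RPM through a median of 620 to 773 RPM, and in PM from 703 through 1003 to 1363 RPM. The groups overlapped, with 6 of the 7 PM libraries above every Sham library. The mean was 604 ± 172 RPM (SD, n = 7) in Sham and 1038 ± 234 RPM (SD, n = 7) in PM, a log2 fold change of 0.80 ± 0.20 (SE). This contrast chose the gene, and 0% of the genes tested passed an adjusted p of 0.05 in it by limma, edgeR or DESeq2, with 731 genes at an unadjusted p under 0.05 by limma.

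The 5 Sham-OVA libraries held 1139, 870, 1222, 1189 and 913 RPM of Scd1, and the 4 PM-OVA libraries 828.8, 748, 744 and 668 RPM. Every Sham-OVA library was above every Sham library, every PM-OVA library was below every Sham-OVA library, and 3 PM-OVA libraries lay in the lower part of the PM range and 1 below every PM library. Such a separation was found for 13.2% of all genes with Sham-OVA above Sham and for 0.298% with PM-OVA below Sham-OVA, and these groups make up the interaction that chose Scd1. The log2 change with challenge was 0.86 ± 0.22 (SE) in Sham and −0.44 ± 0.19 (SE) in PM offspring, the latter next to the median of all genes of −0.43. The difference of the changes, the interaction, was −1.31 ± 0.29 (SE). By limma 0% of all genes passed in the interaction, with 854 genes at an unadjusted p under 0.05, and the shares were 27.5% with array weights and 4.29% without the 3 shallowest libraries. PM-OVA against Sham-OVA gave −0.50 ± 0.18 (SE).

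Averaged over both maternal groups the change of Scd1 with challenge was 0.21 (95% interval −0.09 to 0.51), with an adjusted p of 0.195 (limma). That value is sensitive to the scale. With median-of-ratios scaling it was 0.58 and past the threshold, and with the trend of the response with transcript length and GC content removed it was 0.65 and past the threshold.

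Markers of fat tissue were followed beside Scd1, because adipocytes hold much of it. Adipoq, the adipocyte hormone adiponectin, was at 0.502 to 4.88 RPM in Sham, 0.779 to 5.37 RPM in PM, 0 to 2.80 RPM in Sham-OVA and 0 to 0.929 RPM in PM-OVA. The 13 adipocyte markers summed to 85.3 to 186 RPM in Sham, 89.7 to 152 RPM in PM, 75.1 to 135 RPM in Sham-OVA and 67.2 to 95.1 RPM in PM-OVA, where Lep and Acvr1c were at 0. Of the 10 adipocyte markers tested, 7 fell with challenge averaged over both maternal groups and none rose, where 53.6% of all genes fell and 23.8% rose. Plin1, the lipid droplet coat protein perilipin 1, fell by 1.73 on the log2 scale, and the most abundant of the list, the lipase gene Lipe (42.7 to 121 RPM in the saline libraries, much of that sum), was at −0.19 (adjusted p = 0.280). After each group's mean was taken away, Adipoq followed Scd1 over the 23 libraries with a Pearson r of 0.57, rank 60 of 14733 genes. Its r was 0.72 over the 14 saline libraries and 0.35 over the 9 OVA libraries. Plin1 had an r of 0.52 and Cidec, another adipocyte marker, 0.36, and the type 2 cell genes Abca3 and Sftpc had 0.47 and 0.14. The part of fat tissue in the level of Scd1 was not tested, and fewer cells of a type cannot be told apart from less RNA per cell in these bulk libraries.

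The genes whose pattern within groups was most like that of Scd1 over the 23 libraries were Cyp4f39 (r = 0.85), a cytochrome P450 of the fatty acid hydroxylase family, Tmem164 (r = 0.81), Slc41a2 (r = 0.80), Mmp14 (r = 0.77), a membrane matrix metalloproteinase, and Gjb1 (r = 0.74), the gap junction protein connexin 32. Over the 14 saline and the 9 OVA libraries the r was 0.92 and 0.63 for Cyp4f39, 0.84 and 0.60 for Tmem164, and 0.82 and 0.88 for Slc41a2. It was 0.89 and 0.26 for Mmp14 and 0.92 and 0.43 for Gjb1. Fasn came at rank 8 with r = 0.71 (Spearman 0.80). The r of Fasn was 0.75 over the 14 saline libraries and 0.39 over the 9 OVA libraries. The other genes of the set followed Scd1 less closely, with r of 0.32 for Thrsp and Acly, 0.23 for Insig1, 0.20 for Me1, 0.11 for Elovl6, 0.08 for Scd2 and 0.02 for Srebf1. These are descriptions over libraries that share depth and composition.

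**Figure D2:**
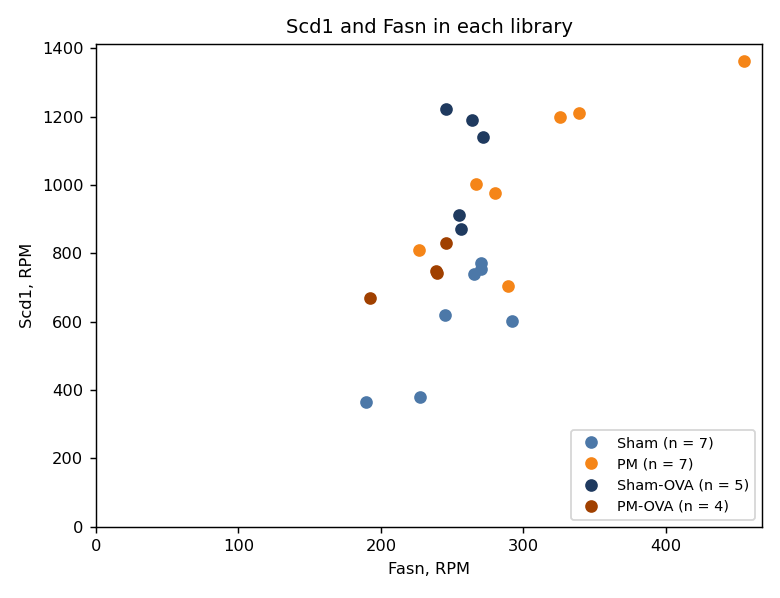
Level of Scd1 against Fasn (RPM, linear axes from 0) in each library, coloured by group. PM replicate 5 had the most of both genes (1363 RPM of Scd1 and 455 RPM of Fasn), and the Sham-OVA libraries spread over 870 to 1222 RPM of Scd1 while Fasn stayed between 246 and 272 RPM.

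Scd2, the desaturase isoform that predominates in lung and brain, went the other way from Scd1 under challenge in Sham offspring. It ran from 825 through 987 to 1045 RPM in Sham and from 987 through 1045 to 1204 RPM in PM, against 554, 691, 876, 363 and 391 RPM in Sham-OVA and 702, 601, 529 and 429 RPM in PM-OVA. In Sham-OVA 4 of the 5 libraries lay below every Sham library, and in PM-OVA all 4 lay below every PM library. Scd2 fell by 0.83 on the log2 scale in Sham (adjusted p = 0.00232) and by 0.95 in PM (adjusted p = 0.000304), past the medians of all genes. In Sham it was no longer past the threshold with median-of-ratios or TMM scaling (−0.46 in both) or with the trend of length and GC removed (−0.40). Scd1 and Scd2 are neighbours on chromosome 19 (Scd2 from 44293674 to 44306864, plus strand, Scd1 from 44394455 to 44407879, minus strand, GRCm38), and 125 of 4733 windows of 100 bases of the Scd1 transcript were shared with another Scd gene, as were 48 of 5356 of Scd2, so most reads can tell them apart.

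Of the 9 genes other than Scd1, 4 passed the threshold in Sham-OVA against Sham, where 68.1% of all genes did (20.6% higher and 47.5% lower): Me1 rose, and Scd2, Acaca and Insig1 fell. In PM-OVA against PM 7 of 9 passed, where 65.3% of all genes did (20.1% higher and 45.2% lower): Me1 rose, and Scd2, Fasn, Acaca, Acly, Elovl6 and Insig1 fell. Averaged over both maternal groups 6 of the 10 passed against 77.4% of all genes (23.8% higher and 53.6% lower), with Me1 higher and Scd2, Acaca, Acly, Elovl6 and Insig1 lower. The median of the 10 was −0.41 beside −0.46 for all genes. The shares in Sham and in the average were below the background and the share in PM was above it, so no count sets the 10 genes apart, and what follows concerns single genes. With median-of-ratios scaling, which brought the median of all genes to −0.14, 4 of the 10 were higher (Me1, Scd1, Srebf1 and Thrsp) and 5 lower on average, 3 higher and 2 lower of 9 in Sham, and 2 higher and 4 lower of 9 in PM. The shares of all genes moved too under that scaling. They were 33.7% higher and 43.1% lower on average, 29.2% and 38.1% in Sham, and 28.9% and 35.7% in PM. In Sham the count of 4 rested on Sham replicate 3. Without that library 7 of 9 passed, with Acly, Elovl6 and Thrsp added, beside 11237 of all 16795 genes.

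**Figure D3:**
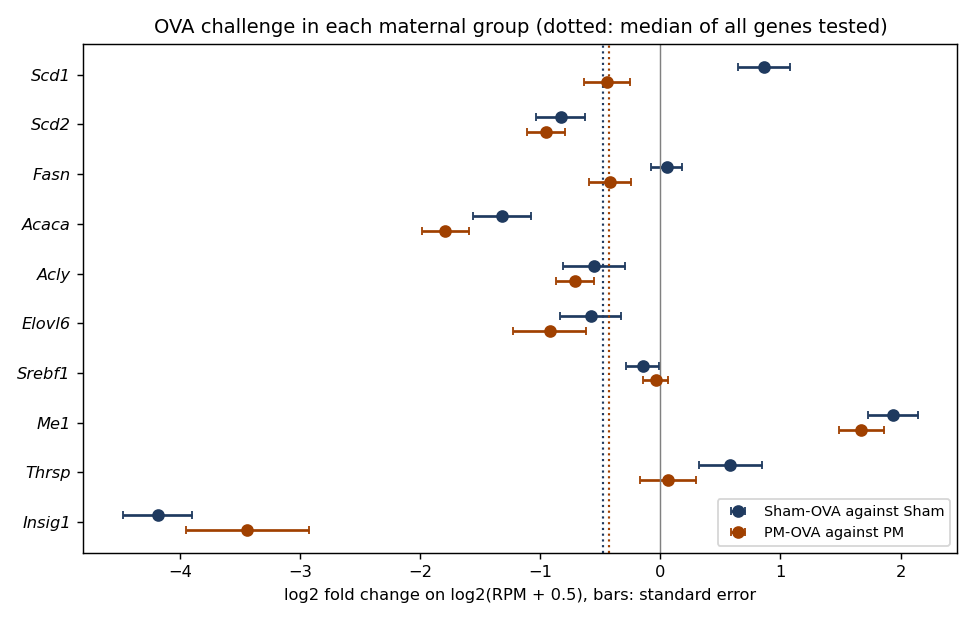
Log2 fold change with OVA challenge of each gene on the log2(RPM + 0.5) scale in offspring of Sham dams (dark blue) and of PM2.5 dams (brown). Points are estimates and bars standard errors, and dotted lines are the medians of all genes (−0.48 and −0.43): Insig1 lay far below and Me1 far above them in both, and Scd1 lay at 0.86 in the first and at −0.44 in the second.

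Insig1 had the largest change. It was at 5.73 to 18.0 RPM in Sham and 11.3 to 17.5 RPM in PM, with medians of 13.6 and 13.4 RPM. The Sham-OVA libraries held 0.764, 0.0752, 0, 0.159 and 0.219 RPM, or 11, 1, 0, 2 and 3 reads. The PM-OVA libraries held 5.38, 1.08, 0 and 0.182 RPM, or 80, 14, 0 and 1 reads. No OVA library reached its saline group. The groups did not overlap for 48.1% of all genes in Sham, 35% with OVA lower, and for 41.9% in PM, 28.6% with OVA lower. The log2 fold change was −4.18 ± 0.29 (SE, adjusted p = 3.90e-08) in Sham and −3.44 ± 0.51 (SE, adjusted p = 0.000184) in PM, on a scale where the added 0.5 RPM limits a fall of this size. By limma Insig1 in Sham also passed the study's threshold for a differentially expressed gene (DEG), an adjusted p under 0.000001 and a log2 change above 1, which 4.51% of all genes did. On average over both maternal groups 3 of the 10, Insig1, Acaca and Me1, passed it by limma, as did 24.7% of all genes, and in PM none of 9 passed by limma, as did 0.286% of all genes. The study applied that threshold to DESeq2, and by DESeq2 on the recovered reads 2 of 9 passed in Sham (Insig1 and Me1) beside 28.9% of all genes, and 1 of 9 in PM (Me1) beside 17% of all genes.

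The 2 PM-OVA libraries with the most Insig1 were the deepest of that group. Without the 3 shallowest libraries the fall of Insig1 in PM was −2.24, still past the threshold, and in Sham it was −4.06. PM-OVA and Sham-OVA did not differ past the threshold (0.92, 95% interval −0.52 to 2.37, adjusted p = 1), and the estimate of 1.99 without the 3 shallowest libraries did not pass either (adjusted p = 0.214). The interaction, a description here, was 0.75 ± 0.60 (SE) and 1.82 without those libraries.

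Me1, cytosolic malic enzyme and a source of NADPH, rose in both maternal groups. It was at 33.9 to 58.0 RPM in Sham and 43.8 to 88.0 RPM in PM, and at 204, 173, 103, 228 and 213 RPM in Sham-OVA and 157, 184, 135 and 185 RPM in PM-OVA. Every OVA library was above every saline library of its maternal group, as for 13.2% of all genes in Sham and 13.3% in PM. The log2 fold change was 1.94 ± 0.20 (SE, adjusted p = 1.84e-06) in Sham and 1.67 ± 0.19 (SE, adjusted p = 3.63e-05) in PM. PM-OVA and Sham-OVA did not differ past the threshold (−0.12, 95% interval −0.66 to 0.42). Me1 stayed past an adjusted p of 0.05 in every fit tried. Its rise in Sham missed the study's threshold for a DEG by limma and passed it by edgeR and DESeq2, and in PM, of these tools, it passed by DESeq2 alone.

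Among the steps from citrate to palmitate, Acly lay somewhat below the median change of all genes in both maternal groups, Fasn lay above it in Sham and next to it in PM, and Acaca was barely detected. Acly ran from 101.1 through 169 to 194 RPM in Sham and from 159 through 184 to 191 RPM in PM, and was at 153, 104, 48.2, 130 and 131 RPM in Sham-OVA and 153, 122, 87.1 and 89.0 RPM in PM-OVA. All 4 PM-OVA libraries lay below every PM library, and Acly fell by 0.71 on the log2 scale in PM (adjusted p = 0.00173). In Sham the value was −0.55 (adjusted p = 0.0690). Without the 3 shallowest libraries the value of Acly in PM was −0.40, where the median of all genes was −0.14. With the trend of length and GC removed it was −0.56, and both were past the threshold.

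Fasn ran from 190 through 265 to 292 RPM in Sham and from 227 through 289 to 455 RPM in PM, and was at 272, 256, 246, 264 and 255 RPM in Sham-OVA and 246, 239, 240 and 192 RPM in PM-OVA. The Sham-OVA libraries lay inside the range of Sham. The change was 0.05 (95% interval −0.22 to 0.33) in Sham and −0.42 in PM, where the adjusted p of 0.0499 was just past the threshold and was lost without any 1 of 9 of the 11 libraries. With median-of-ratios scaling Fasn was 0.42 and past the threshold as higher in Sham, and −0.05 in PM, so its direction changed with the scale. All 4 PM-OVA libraries were below all 5 Sham-OVA libraries, but by a hair. The highest PM-OVA value was 245.8 RPM and the lowest Sham-OVA value 246.1 RPM, in replicate 3, where 1 read was worth 0.311 RPM. Such an order was found for 0.298% of all genes (0.31% were all above, 0.607% either), and for Fasn it is close to a tie. The difference of −0.18 (95% interval −0.48 to 0.11) did not pass (adjusted p = 1).

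Acaca was at 0.444 to 1.73 RPM in Sham and 1.09 to 2.13 RPM in PM. Of the 9 OVA libraries 5 held no read of it, and the others held 2 or 4 reads. It fell by 1.32 on the log2 scale in Sham (adjusted p = 0.000228) and by 1.79 in PM (adjusted p = 2.88e-05), and after the trend with transcript length and GC was removed by 0.61 and 1.09, still past the threshold. The Acaca transcript is one of the longest of the set, 9513 bases, and the median change of all genes with challenge went from 0.17 in the shortest of 5 equal bins of transcripts to −1.04 in the longest. The part of length in the fall of Acaca beyond that removal was not tested.

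Elovl6 was at 4.86 to 8.42 RPM in Sham and 6.81 to 9.94 RPM in PM, and at 6.46, 5.12, 1.86, 5.26 and 5.11 RPM in Sham-OVA and 7.86, 6.26, 1.73 and 3.63 RPM in PM-OVA. The lowest value of each OVA group was in one of the 3 shallowest libraries. Elovl6 fell by 0.92 on the log2 scale in PM (adjusted p = 0.0182), and its value in Sham was −0.58 (adjusted p = 0.0532). Settings that lost the call in PM included leaving out PM-OVA replicate 3 (−0.55) or the 3 shallowest libraries (−0.27). They also included removal of the trend of length and GC (−0.24) and median-of-ratios scaling (−0.60), and this list is not complete.

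Srebf1 did not pass the threshold in either maternal group. It ran from 96.9 through 120 to 125 RPM in Sham and from 111 through 116 to 136 RPM in PM, and from 78.6 through 104 to 119 RPM in Sham-OVA and 110 through 114 to 123 RPM in PM-OVA. The changes of −0.15 (95% interval −0.44 to 0.14) in Sham and −0.04 (−0.27 to 0.19) in PM stood above the medians of all genes, and with median-of-ratios scaling they became 0.22 and 0.32, the latter past the threshold. Srebf1 overlaps Rai1 on the opposite strand in the annotation, by an extent that was not measured. Without the strand setting of the counting, reads in the shared stretch cannot be told apart. Acaca, Elovl6 and Me1 also overlap a gene on the opposite strand. Thrsp ran from 6.38 through 9.70 to 19.5 RPM in Sham, from 9.14 through 11.2 to 22.4 RPM in PM, from 11.3 through 14.1 to 21.4 RPM in Sham-OVA and from 13.1 through 13.8 to 14.9 RPM in PM-OVA. All 4 ranges of Thrsp overlapped, and its changes of 0.58 in Sham (adjusted p = 0.0603) and 0.07 in PM did not pass.

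**Figure D4:**
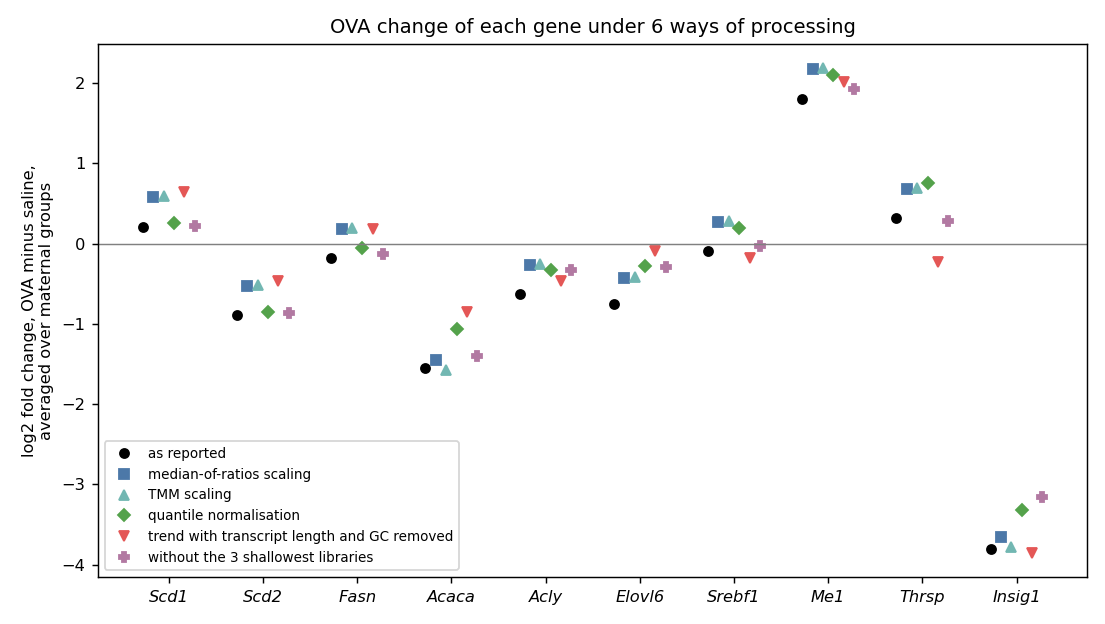
Log2 fold change with OVA challenge averaged over both maternal groups (vertical axis) for each of the 10 genes, under 6 ways of processing shown as symbols. Insig1 and Acaca stayed below 0, Me1 stayed above 1.8, Scd1 ranged from 0.21 to 0.65, and Fasn, Srebf1 and Thrsp had values on both sides of 0.

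Among saline offspring the other genes leaned the same way as Scd1 by smaller amounts. Each of the 10 log2 differences of PM against Sham was above 0, Scd1 having been chosen by this contrast. The others were 0.51 for Acaca, 0.39 for Thrsp, 0.29 for Fasn and for Elovl6, 0.21 for Acly, 0.18 for Insig1, 0.16 for Scd2, 0.15 for Me1 and 0.05 for Srebf1. The median over all genes was 0.02, and the share of all genes above 0 was not counted. The lean was not particular to the set. Of the lists below, 17 of 21 other synthesis genes, 9 of 10 type 2 cell markers and 14 of 21 cholesterol genes were above 0. For regulators it was 7 of 12 and for triglyceride genes 3 of 9. For every one of the 10 genes the 2 groups overlapped, and 0.00595% of all genes (1 gene) did not overlap. Among OVA-challenged offspring 0 of the 9 genes other than Scd1 passed in PM-OVA against Sham-OVA by limma, edgeR or DESeq2, and 0 of 9 had an unadjusted p under 0.05 by limma, where 0% of all genes passed by limma and 1 gene by DESeq2. The interaction of the other 9 ran from −0.52 for Thrsp and −0.47 for Fasn and Acaca to 0.75 for Insig1.

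Genes around the pathway were read from lists compiled by hand, with the change averaged over both maternal groups beside the median of −0.46 over all genes, of which 77.4% passed, 23.8% as higher and 53.6% as lower. Of 21 other genes of fatty acid synthesis, elongation and desaturation tested, 5 rose, 13 fell and 3 did not pass, with a median of −0.48. The reductase genes Tecr (1.69), of elongation, and Mecr (1.47), of the mitochondrial pathway, were the highest, and Hacd2 (−2.31), a dehydratase of elongation, and Elovl5 (−1.92), an elongase of polyunsaturated fatty acids, were the lowest. All 4 passed. With median-of-ratios scaling 6 rose and 9 fell, beside 33.7% and 43.1% of all genes.

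Of 12 regulators of lipogenesis 4 rose and 7 fell, with a median of −0.54. Usf2 (1.91) and Usf1 (0.65), the upstream stimulatory factors that bind E-boxes, rose. Mbtps2 (−1.63), the site-2 protease that frees SREBP, Pparg (−1.28), the nuclear receptor of adipogenesis, and Srebf2 (−0.66), the SREBP of cholesterol synthesis, fell, as did Insig2 (−0.82), the homologue of Insig1. Srebf2 fell little further than the median of all genes. With the trend of length and GC removed 7 of the 12 regulators passed, 1 as higher, beside 75.5% of all genes, 21.9% as higher.

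Of 21 cholesterol genes 8 rose and 9 fell, with a median of −0.08. Mvd (1.86), mevalonate diphosphate decarboxylase, and Tm7sf2 (1.65), a sterol reductase, rose. Lss (−1.48), lanosterol synthase, and Fdps (−1.47), farnesyl diphosphate synthase, fell. Fdps was near the floor, at a mean of 2.83 RPM in Sham and 0.561 RPM in Sham-OVA. Insig1 thus fell in libraries where other genes of the SREBP pathway went in both directions.

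Of 7 genes listed for NADPH supply other than Me1, pentose phosphate genes included, 5 rose and 1 fell, with a median of 0.76. Tkt (2.23), transketolase, and Taldo1 (1.48), transaldolase, both of the pentose phosphate pathway, rose. Neither enzyme makes NADPH itself, so the count is not a measure of NADPH supply. Me3 (−0.54), a mitochondrial malic enzyme, fell. G6pdx, glucose-6-phosphate dehydrogenase, an enzyme of that pathway that does make NADPH, was at −0.30 (adjusted p = 0.113). With TMM or median-of-ratios scaling 5 passed as higher and none as lower, and after removal of the trend with length and GC 5 passed as higher. Of all genes 33.9% (TMM) and 33.7% (median-of-ratios) passed as higher, and 21.9% after that removal. All 9 genes of the triglyceride synthesis list passed, 1 higher and 8 lower, with a median of −1.02, where 77.4% of all genes passed and 53.6% were lower. The list includes Plin2, a lipid droplet coat protein and not a synthesis enzyme, which is also in the lipofibroblast list below. Dgat1 (1.34), an acyltransferase of the last step, rose, and Lpin2 (−2.83) and Lpin3 (−1.58), phosphatidate phosphatases, and Agpat2 (−0.54) fell. In PM-OVA against PM 8 of those 9 passed beside 65.3% of all genes, and 5 of 9 beside 51% without the 3 shallowest libraries.

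Of 14 fatty acid oxidation genes 4 rose and 6 fell, with a median of −0.22. Hadh (1.12) and Acadl (0.48), dehydrogenases of beta-oxidation, rose, and Ppara (−2.03), the receptor that drives the pathway, and Acadm (−1.67) fell. Ppara was near the floor, at a mean of 2.56 RPM in Sham and 0.208 RPM in Sham-OVA. With median-of-ratios scaling 6 rose and 6 fell, beside 33.7% and 43.1% of all genes. In PM against Sham and in PM-OVA against Sham-OVA no gene of these 6 lists passed by limma.

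**Figure D5:**
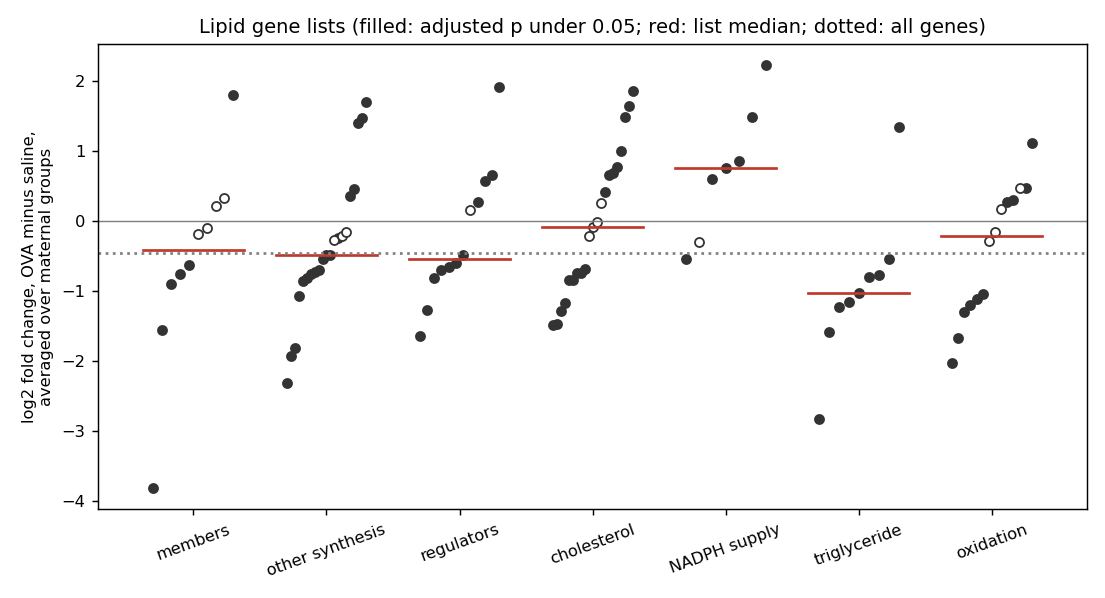
Log2 fold change with OVA challenge averaged over both maternal groups (vertical axis) for the tested genes of the 10-gene set and 6 related lists. Each point is a gene, filled where the adjusted p was under 0.05. Red lines are list medians and the dotted line is the median of all genes (−0.46). The list medians ran from −1.02 for the triglyceride list to 0.76 for the NADPH supply list, which includes pentose phosphate genes that make no NADPH.

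Cell type markers moved with challenge as well, and their counts are likewise read beside 23.8% of all genes higher and 53.6% lower. Of 11 genes of eosinophils and the type 2 response 10 rose and 1 fell, led in level by Retnla at 8337 RPM or more in each OVA library and at 133 RPM or less in each saline library. The gene that fell was Siglecf, which is also in the alveolar macrophage list below. The 10 type 2 cell markers split into 3 higher, 3 lower and 4 not passing, and their sum was 14945 to 26155 RPM in Sham, 18249 to 33765 RPM in PM, 31606 to 38492 RPM in Sham-OVA and 25767 to 45391 RPM in PM-OVA. Sftpc rose by 1.17 and Abca3, the lipid transporter of lamellar bodies, was at −0.11 (adjusted p = 0.261). Of 8 lipofibroblast markers 7 fell, with sums of 4619 to 6612 RPM in Sham, 5195 to 6471 RPM in PM, 1057 to 3478 RPM in Sham-OVA and 1577 to 4207 RPM in PM-OVA, and the most abundant, Inmt, fell by 0.87. Of 8 alveolar macrophage markers tested 3 rose and 4 fell. Marco, Siglecf (−1.17), Fabp1 (−2.11) and Plet1 (−0.97) fell, and Chil3 (4.83), F7 (1.41) and Car4 (1.09) rose. Fabp1 was near the floor, at a mean of 3.00 RPM in Sham and 0.058 RPM in Sham-OVA. Much of the sum of this list was Car4, which capillary endothelium also expresses, at a mean of 208 RPM in Sham and 419 RPM in Sham-OVA. The sums were 216 to 372 RPM in Sham, 150 to 368 RPM in PM, 430 to 626 RPM in Sham-OVA and 306 to 735 RPM in PM-OVA. Ear1 was at 0 in PM, Sham-OVA and PM-OVA. The part of these cells in the changes of the 10 genes was not tested.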

How the data were processed

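Lung RNA-Seq of 23 offspring (7 Sham, 7 PM, 5 Sham-OVA, 4 PM-OVA) was analysed, grouped by the labels. According to the study's methods, the authors used Trimmomatic for trimming, Bowtie2 for alignment to GRCm38 (mm10 in the labels) and SeqMonk for quantification. The strand setting and exon rule of the counting are not given in the sources used here, and Bowtie2 does not split reads over introns. The authors deposited 1 table of RPM values for 35322 genes. It is named after RPKM, but at least 99.994% of the values in each library were whole multiples of 1 read within 0.01 read, so it was treated as RPM and reads were recovered.

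Values were taken to log2(RPM + 0.5). The filter kept 16795 genes, those reaching 0.5 RPM in 4 or more libraries. They were fitted in R 4.3.3 by limma 3.58.1, whose variance prior followed the mean, with Benjamini-Hochberg adjustment over all genes and a threshold of 0.05. Each pair of groups was fitted alone, and the averaged OVA response and the interaction came from 1 fit of all 4 groups. On simulated data limma recovered 200 of 200 genes changed 4-fold in Sham-OVA against Sham, with 14 false calls among 16644 genes. Recovery of changes smaller than 4-fold, or in genes of low level, was not tested. The simulation set the same spread for every gene and group and no shift of all genes with challenge. The OVA libraries here were less alike within groups (lowest r 0.899 in Sham-OVA and 0.895 in PM-OVA) than the saline libraries (0.971 in Sham and 0.974 in PM). The simulated rates need not hold for them. Values of p measure the spread between libraries, which may share litters.

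The genes and lists were chosen with earlier results of these data known. Genes named from a list are the 2 highest and the 2 lowest by the averaged response, with Srebf2, and from cell type lists the most abundant gene, with Adipoq, Plin1, Ucp1, Sftpc and Abca3, of which Ucp1 did not pass the filter. Some genes that the rule names are not reported here. Insig2, the macrophage markers other than Car4 and the markers at 0 were added after their values were seen. Likeness to Scd1 was Pearson r of log2 values after each group's mean was taken away, among 14733 genes. Annotation was GENCODE on GRCm38. Alternatives were other pseudocounts, filters, scalings, fits and thresholds, edgeR 4.0.16 and DESeq2 1.42.0 on the recovered reads, a replicate block and leaving out each library. Removal of the trend with length and GC, and leaving out the 3 shallowest libraries, were chosen after seeing the data.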

Additional observations from a re-analysis of the deposited data

Results flagged for a closer look

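In 4 of the 40 groups of values tested (10 genes in 4 groups), 1 library stood apart from the rest of its group by the gap to its nearest neighbour, where chance gives about 1 in 20. Fasn in PM-OVA replicate 4 was lowest at 192 RPM, the other 3 being at 239 to 246 RPM. Elovl6 in Sham-OVA replicate 3, the shallowest library, was lowest at 1.86 RPM, the others being at 5.11 to 6.46 RPM. Me1 in PM replicate 5 was highest at 88 RPM, the others being at 43.8 to 49.4 RPM, and that library also had the most Scd1, Fasn, Srebf1 and Thrsp and the least Acly and Insig1 of its group. Insig1 in Sham replicate 3 was lowest at 5.73 RPM, the others being at 11.6 to 18.0 RPM, and that library also had the least Scd1, Fasn, Acly and Elovl6 and the most Scd2 and Srebf1 of its group.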

How the results depend on the processing

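Of the results tested or counted, Insig1 and Acaca (lower) and Me1 (higher) kept their direction and stayed past an adjusted p of 0.05 under all alternatives other than the study's threshold for DEGs, in Sham-OVA against Sham, in PM-OVA against PM and on average, with averaged values of −4.99 to −3.15, −3.12 to −0.85 and 1.76 to 2.26. The cause of each change below was not tested. Srebf1 changed sign with median-of-ratios scaling, TMM scaling, quantile normalisation, edgeR and DESeq2, in Sham to 0.22, 0.22, 0.14, 0.31 and 0.22, in PM to 0.32, 0.34, 0.25, 0.35 and 0.36, and on average to 0.27, 0.28, 0.20, 0.37 and 0.27. Averaged Fasn became 0.18, 0.19, 0.27 and 0.18 with median-of-ratios, TMM, edgeR and DESeq2, and 0.17 with the trend of length and GC removed, which also gave Thrsp −0.48 in PM and −0.22 on average, and Elovl6 0.067 in Sham. In PM-OVA against Sham-OVA, where values were near 0, Scd2 became −0.17 (edgeR), −0.18 (DESeq2) and −0.00092 (trend removed), Acaca −0.015 (quantile normalisation), −0.11 (array weights) and −0.019 (trend removed), Acly −0.31 and Thrsp 0.036 (array weights) and Elovl6 0.33 (without the 3 shallowest libraries).

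Counts of the set moved to 7 in Sham with array weights, beside 76.3% of all genes. With the study's threshold for DEGs by limma they moved to 1 in Sham, 0 in PM and 3 on average. By DESeq2 that threshold was passed by 2 of 9 in Sham and 1 of 9 in PM, and by 4861 and 2851 of all genes against 758 and 48 by limma. The interaction moved with array weights to −0.59 for Acly, −1.08 for Elovl6 and −0.15 for Insig1, with edgeR to 2.504 and with DESeq2 to 2.46 for Insig1, and without the 3 shallowest libraries to 1.82 for Insig1 and 0.27 for Scd2. Of the lists, regulators passing went with the trend removed to 6 in Sham, beside 64.7% of all genes, and 7 on average, beside 75.5%. Oxidation genes went to 13 in Sham with edgeR, beside 67%. Triglyceride genes in PM went to 5 with edgeR, beside 60.8%, and to 5 without the 3 shallowest libraries, beside 51%.

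Deviations of libraries with the same replicate number were also correlated. The correlation was over 0.1 in 1 of 5 pairs of Sham-OVA and Sham, 0 of 4 of PM-OVA and PM and 1 of 7 of PM and Sham. In PM-OVA and Sham-OVA it was over 0.1 in 3 of 4 pairs (−0.31 to 0.62). These numbers come from the sample titles, and most OVA libraries carry another number in their library name. A shared number therefore need not mark a pair, here or in the replicate block. With a replicate block 5 of 9 passed in Sham, beside 59.7% of all genes, and 5 of 9 in PM, beside 47.5%. Srebf1 was then at 0.012 in PM and Scd2 at −0.087 in PM-OVA against Sham-OVA. In PM 8 of 21 other synthesis genes, 4 of 12 regulators and 4 of 9 triglyceride genes passed, beside the same 47.5%.

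Leaving out each library in turn gave counts of 4 to 7 in Sham, 5 to 7 in PM, 6 to 7 on average and 0 in each case in PM-OVA against Sham-OVA. Of all 16795 genes 10914 to 12146 then passed in Sham, 9592 to 12083 in PM and 12542 to 13222 on average. Values near 0 ran over both signs, from −0.013 to 0.091 for Fasn in Sham, −0.020 to 0.19 for Thrsp in PM, and in PM-OVA against Sham-OVA from −0.083 to 0.15 for Acaca, −0.23 to 0.19 for Acly, −0.32 to 0.31 for Elovl6 and −0.11 to 0.20 for Scd2.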
